A study of Mus musculus with 6 samples.

Results

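The genes described here are 10 genes of the NF-kB pathway, measured by RNA-seq in mouse liver. They are 4 of the subunit genes (Nfkb1, Nfkb2, Rela, Relb), 3 genes of the IkB family (Nfkbia, Nfkbiz, Bcl3) and 3 genes that TNF signalling induces (Tnfaip2, Tnfaip3, Birc3). They were chosen by symbol, with earlier results of these data known. All 10 were found among the 17441 genes of the deposited table and passed the filter on low counts. The study compared 3 livers of WT mice with 3 livers of mice labelled as whole-body Nek7 knockouts (iKO), whose deletion is induced by tamoxifen. All 6 livers, WT included, were taken 10 days after tamoxifen injection, and the labels name no acetaminophen treatment. The labels give no Cre driver, strain, age or sex, and do not say whether the WT mice carry a Cre or a floxed allele. They number the livers within a group, so p-values measure the spread between these samples.

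NF-kB is a family of dimeric transcription factors. In resting cells, dimers such as RELA with p50, the product of Nfkb1, are held in the cytoplasm by IkB proteins. Signals from TNF, interleukin-1 or Toll-like receptors activate IkB kinases, IkB alpha is degraded, and the dimers enter the nucleus. They induce inflammatory and survival genes together with their own brakes, among them Nfkbia, which encodes IkB alpha, and Tnfaip3, which encodes the ubiquitin-editing enzyme A20. A second route, through Nfkb2 and Relb, depends on processing of the p100 precursor. In the liver, hepatocytes, Kupffer cells and endothelial cells all use the pathway, which guards hepatocytes against killing by TNF.

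Library totals ran from 18139500 to 19912000 expected counts, and albumin took 5.18% to 10.7% of them, as in hepatocyte-rich tissue. Values below are CPM (counts scaled by library size) after TMM scaling unless another scale is named, and TMM factors ran from 0.780 (iKO 1) to 1.18 (WT 2). Nek7 values were 55.5, 40.5 and 36.3 CPM (WT) against 50.2, 32.8 and 31.0 CPM (labelled iKO), with edgeR's adjusted p = 0.541. In TPM, which also corrects for transcript length, it was 21.3, 20.4 and 15.7 against 13.8, 13.1 and 13.0. Since the gene total in CPM does not set the groups apart, the knockout libraries are called "labelled iKO". Reads of the Y-linked genes Ddx3y and Kdm5d were at 0 counts in WT 2 and WT 3 and at 573 to 1113 counts in the other 4 libraries. Apparent sex and the label are thus partly confounded, and where a model term for these Y-linked reads ends a call of the 10 genes, its value is given. Since WT 1 is the only WT library with such reads, contrasts with that term rest largely on WT 1.

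Of the 10 genes, Nfkbia was higher in the livers labelled iKO, Tnfaip2 and Nfkb1 were lower, and 7 were not called. A gene is called here at an adjusted p under 0.05 by edgeR's quasi-likelihood test with Benjamini-Hochberg adjustment over all 13160 tested genes. Over all tested genes 15.4% were called, 7.31% higher and 8.07% lower. The 962 higher and 1062 lower calls became 421 and 931 when log2(FPKM + 1) was fitted with limma. CPM values of the groups did not overlap for 7 of the 10 genes, 3 higher and 4 lower, where 39.0% of all tested genes had no overlap (19.8% higher and 19.2% lower). On the TPM scale the count was 6, 2 higher and 4 lower, the difference being Nfkbia. There 32.0% of all tested genes had no overlap, 6.19% higher and 25.8% lower. The median log2 fold change of the 10 genes was 0.18, beside -0.02 over all tested genes, with 6 above 0 and 4 below. The 10 genes were set beside these background shares without a test.

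**Figure D1:**
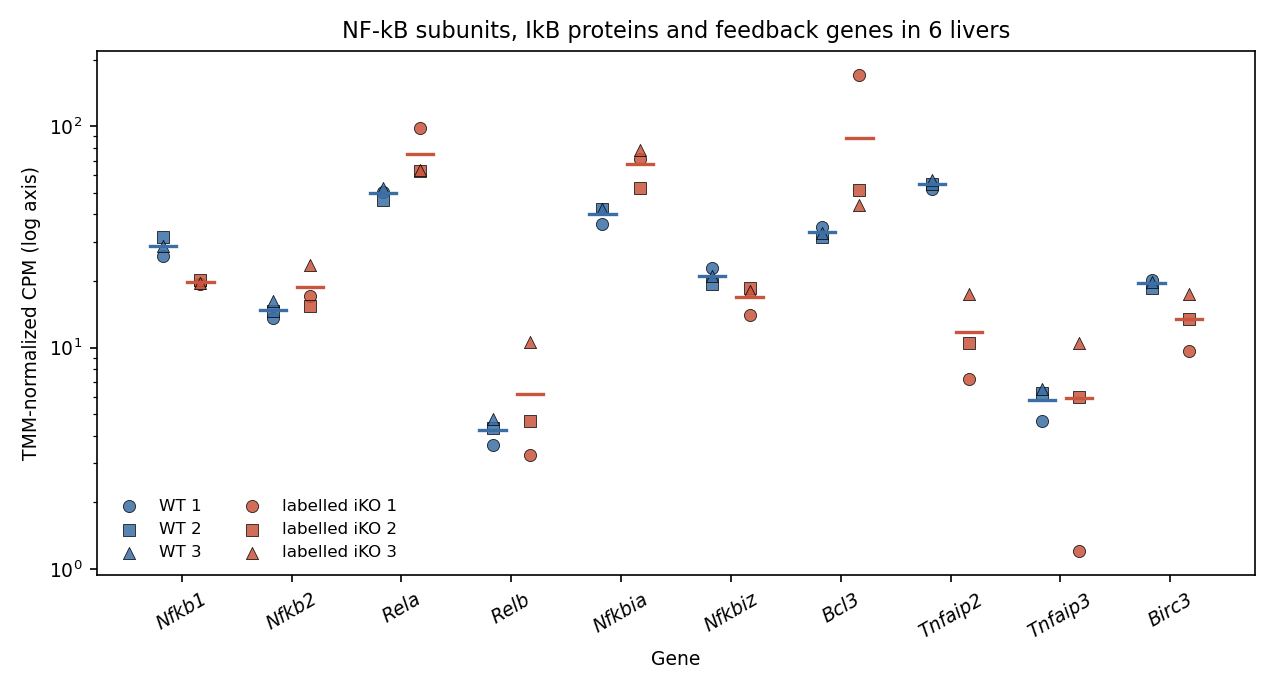
Each point is the TMM-normalized CPM (log axis) of 1 gene in 1 liver, blue for WT and red for labelled iKO, with a horizontal bar at the group mean and a marker shape for the library number. Tnfaip2 lies between 52.1 and 57.2 CPM in WT and between 7.19 and 17.5 CPM in the libraries labelled iKO, while Tnfaip3, Relb and Bcl3 spread widely among the libraries labelled iKO.

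Among the subunits, Nfkb1 was lower and the others were not called. Nfkb1 (gene ID 18033), which encodes the p105 precursor of p50, had WT values of 25.8, 31.5 and 28.7 CPM, against 19.4, 20.3 and 19.6 CPM under the iKO label. In CPM all 3 libraries labelled iKO lay below the lowest WT library and close together. In TPM they also lay below it, at 5.72, 8.71 and 8.75 against 10.9, 17.4 and 13.4 in WT, but less close together. In edgeR the log2 fold change of -0.54 (SE 0.15) had an adjusted p of 0.0369. This is 68.9% of WT (95% interval 55.0% to 86.3%). That call held when WT 1 was left out. It ended without WT 2 (adjusted p = 0.213), WT 3 (0.0856), iKO 1 (0.0636), iKO 2 (0.0794) or iKO 3 (0.114), and with the term for Y-linked reads (log2 fold change -0.39, adjusted p = 0.376). It also ended with a replicate block (0.0662), in limma fits of log2 FPKM (0.0652 and 0.0661 with pseudocounts of 1 and 0.1) and with a transcript length offset (-0.35, adjusted p = 0.132).

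Rela (gene ID 19697) encodes p65, the main activating subunit, and had WT values of 50.4, 46.2 and 52.5 CPM, against 97.7, 62.9 and 63.6 CPM under the iKO label. The groups did not overlap, in CPM or in TPM, and in CPM iKO 1 stood highest. In TPM, Rela was at 32.7, 39.6 and 39.2 in WT, against 45.7, 42.9 and 46.05 in iKO 1, iKO 2 and iKO 3. Its log2 fold change of 0.59 (SE 0.20) did not pass the threshold (adjusted p = 0.0734 by edgeR). Nfkb2 (gene ID 18034), the gene of p100, had WT values of 13.5, 14.7 and 16.3 CPM, against 17.1, 15.4 and 23.7 CPM, so the groups overlapped (log2 fold change 0.34, SE 0.19, adjusted p = 0.253). Relb (gene ID 19698), the partner of p52, gave 3.61, 4.35 and 4.74 CPM against 3.26, 4.66 and 10.6 CPM. The high value of Relb came from iKO 3 alone. Its log2 fold change was 0.55 (95% interval -0.35 to 1.45, adjusted p = 0.367 by edgeR), and -0.06 without iKO 3. Expected counts of Nfkb2 and Relb were not whole in any library, which can mean reads shared with other genes, so their levels are less certain.

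The mix of subunit transcripts was compared within each library on the TPM scale, which needs no scaling between libraries. The sum over Rela, Nfkb1, Nfkb2, Relb and Rel was 64.8 ± 10.2 TPM in WT and 66.9 ± 9.28 TPM under the iKO label (SD, n = 3 each). Rela took the largest share in every library, 61.3%, 54.2% and 57.8% in WT and 76.5%, 67.5% and 59.5% in those labelled iKO. Nfkb1 took 20.4%, 23.8% and 19.8% of the sum in WT and 9.57%, 13.7% and 11.3% in those labelled iKO, with no overlap. There were thus 3.00, 2.28 and 2.91 Rela transcripts per Nfkb1 transcript in WT and 7.99, 4.93 and 5.26 in the livers labelled iKO. For this ratio an exact permutation test (2-sided) gave p = 0.1, the smallest that 3 against 3 livers allow, and 0.217 after Benjamini-Hochberg adjustment over the 13 quantities compared. The share of Relb ran from 3.03% in iKO 1 to 11.2% in iKO 3, a range that holds all 3 WT values. These quantities were chosen after values had been seen.

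**Figure D2:**
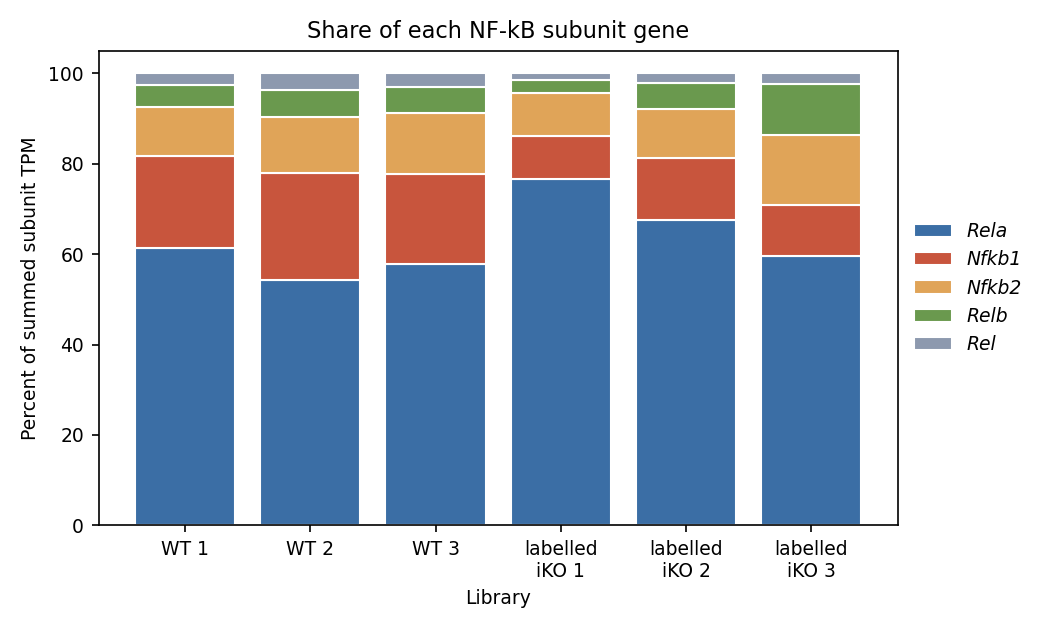
Stacked bars give the percent of the summed TPM of the 5 NF-kB subunit genes that each gene holds, 1 bar per library. The Nfkb1 segment covers 19.8% to 23.8% in the WT libraries and 9.57% to 13.7% in the libraries labelled iKO.

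Of the IkB family, Nfkbia was higher in the livers labelled iKO. Nfkbia (gene ID 18035), the gene of the inhibitor that NF-kB itself induces, had WT values of 36.0, 42.2 and 42.3 CPM, against 71.4, 52.5 and 78.2 CPM under the iKO label. Every library labelled iKO lay above every WT library in CPM, with iKO 2 nearest to WT. In edgeR the log2 fold change of 0.75 (SE 0.18) had an adjusted p of 0.0276. This is a fold of 1.68 (95% interval 1.26 to 2.23). In TPM, which carries no TMM factor, WT stood at 38.1, 59.1 and 50.6 and the livers labelled iKO at 52.8, 57.2 and 87.7, and the groups overlapped. Limma fits of log2 FPKM did not call it (0.53 and adjusted p = 0.12 with a pseudocount of 1), nor did the fit with a transcript length offset (0.58, adjusted p = 0.0578). In edgeR its call also ended with WT 1 (adjusted p = 0.0700), WT 2 (0.0913), WT 3 (0.0647) or iKO 3 (0.0780) left out, and it was at 0.176 with the term for Y-linked reads (log2 fold change 0.90).

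The 2 other IkB family genes encode nuclear proteins that modulate p50 and p52 dimers. Bcl3 (gene ID 12051) had WT values of 34.9, 31.5 and 33.1 CPM, against 171, 51.5 and 44.0 CPM under the iKO label. The groups did not overlap, and iKO 1 stood at 517% of the WT mean against 155% and 133% for iKO 2 and iKO 3. The log2 fold change of 1.42 (SE 0.53) was not called by edgeR (adjusted p = 0.121) and was called by DESeq2 (1.46, adjusted p = 0.00527). Without iKO 1 it was 0.53 (adjusted p = 0.0543 by edgeR). Nfkbiz (gene ID 80859) had WT values of 22.8, 19.3 and 21.1 CPM, against 14.0, 18.6 and 18.1 CPM. Its log2 fold change was -0.32 (95% interval -0.69 to 0.06, adjusted p = 0.216 by edgeR). Nfkbiz counts were not whole in any library.

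The classical inhibitors Nfkbib and Nfkbie, which are not among the 10, were not called (log2 fold change 0.53 with adjusted p = 0.0742, and -0.15 with adjusted p = 0.839, by edgeR). Summed over Nfkbia, Nfkbib and Nfkbie, there were 1.34, 1.47 and 1.41 inhibitor transcripts per subunit transcript on the TPM scale in WT and 1.59, 1.56 and 1.85 in the livers labelled iKO. The groups did not overlap, with p = 0.1 by a 2-sided exact permutation test and 0.217 after adjustment over the same 13 quantities. Nfkbia per Rela transcript overlapped between the groups, at 1.17, 1.49 and 1.29 against 1.15, 1.33 and 1.91.

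Tnfaip2 showed the largest difference of the 10 genes. Tnfaip2 (gene ID 21928), a TNF-induced gene first known from endothelial cells and linked to membrane protrusions, had WT values of 52.1, 54.7 and 57.2 CPM, against 7.19, 10.5 and 17.5 CPM under the iKO label. The WT values lay close together, and the highest value of the livers labelled iKO was far below them. In edgeR the log2 fold change of -2.22 (SE 0.28) had an adjusted p of 0.00252. This is 21.5% of WT (95% interval 13.8% to 33.6%). It was called whichever library was left out, with log2 fold changes from -2.60 to -1.96. Adding the Y-linked term gave -2.15 (adjusted p = 0.0383). In the 4 libraries with such reads alone, where WT 1 is the one control and is assumed to vary like the others, it was also -2.15 and just missed the threshold (adjusted p = 0.0543). In bulk tissue, fewer cells of a type and less RNA per cell cannot be told apart.

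Some markers of non-parenchymal cells were also called lower, where 8.07% of all tested genes were. Most had a log2 fold change below 0, 16 of 17 Kupffer cell and macrophage markers and 15 of 15 endothelial markers. So had 15 of 15 stellate cell and fibroblast markers, where 6798 of 13160 tested genes lay below 0. In that order the list medians were -0.86, -0.86 and -1.48, beside -0.02 over all tested genes. Of 17 Kupffer cell and macrophage markers 8 were lower and 9 not called, and their summed level was 533, 847 and 991 CPM in the WT livers against 399.6 to 487 CPM. Of 15 endothelial markers 4 were lower and 11 not called, with sums of 276, 424 and 418 CPM against 112 to 249 CPM. Of 15 stellate cell and fibroblast markers 9 were lower and 6 not called, with sums of 532, 844 and 948 CPM against 274 to 345 CPM. In all 3 lists WT 1, the WT library with Y-linked reads, stood nearest to the livers labelled iKO. Tnfaip2 was at 52.1 CPM in WT 1, 54.7 CPM in WT 2 and 57.2 CPM in WT 3. No marker of these 3 lists was at 0 counts in all libraries. In iKO 1, iKO 2 and iKO 3, Tnfaip2 was at 7.19, 10.5 and 17.5 CPM. In the same order the Kupffer cell sums were 451, 487 and 399.6 CPM and the endothelial sums 249, 230 and 112 CPM. The stellate cell sums were 345, 274 and 306 CPM. The part of these cells in the lower Tnfaip2 and Nfkb1 levels was not tested.

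The other TNF-induced genes were not called. Tnfaip3 (gene ID 21929) had WT values of 4.67, 6.22 and 6.52 CPM, against 1.2, 6.0 and 10.5 CPM under the iKO label, so iKO 1 lay below, iKO 2 within and iKO 3 above the WT range. Its group difference was near 0 with a wide interval (log2 fold change 0.03, 95% interval -1.47 to 1.53, adjusted p = 0.978 by edgeR), and its sign turned with the scaling and with the library left out. Birc3 (gene ID 11796), which encodes the ubiquitin ligase cIAP2 of the TNF receptor complex, had WT values of 20.3, 18.6 and 19.8 CPM, against 9.66, 13.5 and 17.4 CPM. The groups did not overlap, with a log2 fold change of -0.53 (SE 0.21) that was not called (adjusted p = 0.111). Its counts were not whole in any library.

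**Figure D3:**
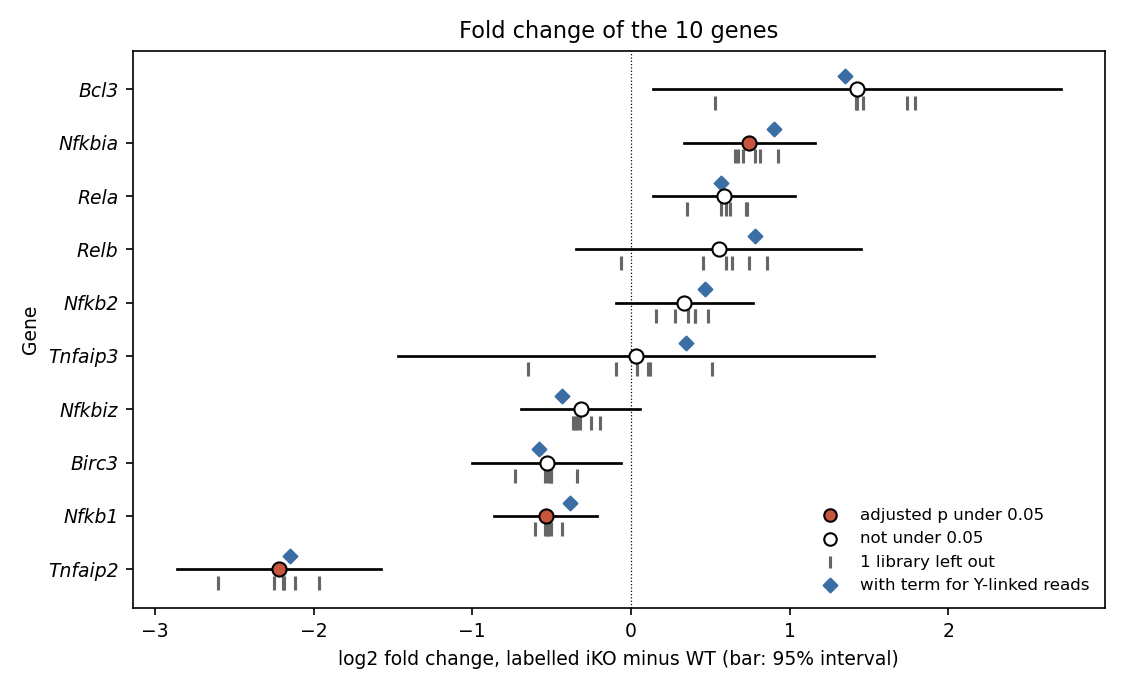
Circles give the log2 fold change of each gene, labelled iKO minus WT, with the 95% interval as a bar; filled circles passed an adjusted p of 0.05 in edgeR. Grey ticks are the 6 fits with 1 library left out and blue diamonds the fit with a term for Y-linked reads. Tnfaip2 stays between -2.60 and -1.96 over the ticks, while those of Tnfaip3 run from -0.65 to 0.51.

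The libraries labelled iKO differed among themselves in several of these genes. Tnfaip2, Tnfaip3, Relb and Birc3 were lowest in iKO 1 and highest in iKO 3, whereas Bcl3 was highest in iKO 1 and lowest in iKO 3. From the lowest to the highest library labelled iKO, Tnfaip3 spanned 8.74-fold, Bcl3 3.89-fold, Relb 3.26-fold and Tnfaip2 2.43-fold. The median span in that group was 1.37-fold over the 9443 genes whose mean reached 5 CPM. Nfkb1, in contrast, spanned 1.05-fold in that group in CPM, a smaller span than that of all but 1.57% of those genes. In TPM, which carries no TMM factor, Nfkb1 was less even, at 5.72, 8.71 and 8.75 in iKO 1, iKO 2 and iKO 3. Within WT, CPM spans of the 10 genes ran from 1.09-fold (Birc3) to 1.40-fold (Tnfaip3), beside a median of 1.29-fold. iKO 1 also had the lowest TMM factor, and the part of that in these spans was not tested.

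Between genes, levels were compared in TPM, which accounts for transcript length. In each WT library the order was Nfkbia, Rela, Bcl3, Tnfaip2, Nfkb1, Birc3, Nfkbiz, Nfkb2, Relb and Tnfaip3, from 49.3 ± 10.6 TPM for Nfkbia to 2.51 ± 0.693 TPM for Tnfaip3 (SD, n = 3 each). Rela at 37.2 ± 3.86 and Bcl3 at 34.5 ± 3.11 TPM differed by less than their SD, and Tnfaip2 followed at 29.5 ± 4.65 TPM. In the livers labelled iKO, Tnfaip2 took the eighth, eighth and ninth place at 5.32 ± 3.16 TPM, and Bcl3 led in iKO 1 with 108 TPM. Tnfaip3 was last in all 6 libraries.

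The windows before the transcription starts were read for kappaB-like letters, since most of the 10 genes are textbook targets of NF-kB. RefSeq windows of GRCm38.p6, from 250 bases before to 50 after a start, were at hand for 7 of the 10 genes (10 windows, of which some belong to 1 gene and overlap). The searched motifs were the kappaB consensus and the looser GGNNNTTCC, which overlap each other, on both strands. The consensus was in 7 of the 10 windows and GGNNNTTCC in 8, from the same 5 genes (Nfkbia, Tnfaip2, Tnfaip3, Nfkb2, Bcl3). Over all 32851 windows of that length the shares were 8.46% and 18.5%. Shown are the 250 bases before the start for the called genes with a window and for 2 uncalled genes rich in matches, with matches of either motif in capitals. They lie at chr12:55492648-55492897 (minus strand) for Nfkbia, chr12:111442411-111442660 (plus) for Tnfaip2, chr10:19015411-19015660 (minus) for Tnfaip3 and chr19:46304487-46304736 (plus) for Nfkb2, each written along its gene.
Nfkbia: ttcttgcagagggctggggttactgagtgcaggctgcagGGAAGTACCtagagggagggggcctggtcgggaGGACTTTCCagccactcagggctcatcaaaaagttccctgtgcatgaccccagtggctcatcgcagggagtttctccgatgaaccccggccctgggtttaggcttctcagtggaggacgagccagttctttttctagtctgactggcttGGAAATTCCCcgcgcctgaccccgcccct
Tnfaip2: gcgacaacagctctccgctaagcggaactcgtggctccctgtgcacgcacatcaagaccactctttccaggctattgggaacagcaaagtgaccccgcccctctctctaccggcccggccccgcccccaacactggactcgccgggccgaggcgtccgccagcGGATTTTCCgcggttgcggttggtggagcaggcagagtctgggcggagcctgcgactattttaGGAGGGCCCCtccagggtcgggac
Tnfaip3: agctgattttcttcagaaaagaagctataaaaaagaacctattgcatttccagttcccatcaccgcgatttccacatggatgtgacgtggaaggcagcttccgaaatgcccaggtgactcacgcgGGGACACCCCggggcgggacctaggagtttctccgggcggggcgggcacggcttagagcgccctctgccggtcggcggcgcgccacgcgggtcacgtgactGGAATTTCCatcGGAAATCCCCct
Nfkb2: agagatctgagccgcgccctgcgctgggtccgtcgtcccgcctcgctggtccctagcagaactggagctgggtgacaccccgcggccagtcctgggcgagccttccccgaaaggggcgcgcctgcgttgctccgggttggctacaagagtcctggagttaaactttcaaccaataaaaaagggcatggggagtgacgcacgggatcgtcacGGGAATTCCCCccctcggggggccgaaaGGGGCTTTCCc
Nfkbia, which was higher, holds a consensus match from -29 to -20, and Tnfaip2, which was lower, one from -24 to -15. The Tnfaip2 window is the only one of the 10 whose last 30 bases were not found in a GENCODE transcript of its gene, so its start, and the positions counted from it, are less certain. Nfkb2 and Tnfaip3, neither of them called, hold 3 and 2 consensus matches in the stretches shown. The Nfkb2 matches from -39 to -30 and from -38 to -29 overlap and share 1 stretch of capitals. Matches were thus present beside a higher, a lower and uncalled genes alike, and a match is a description of letters, not a bound site.

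Profiles over the 6 libraries were compared as the root mean square difference of log2 CPM, each centred on its own mean, among the 9442 other genes whose mean reached 5 CPM. Closest to Nfkb1 were Gimap4, Cds2 and Sh3bp5 (0.03 to 0.04), and closest to Rela were Clybl, D10Wsu102e and Epn1 (0.02 to 0.04). Closest to Nfkbia were Pdlim7, Gps2 and Golt1b (0.06 to 0.07). Tnfaip2 had no neighbour as near, the closest being Bmf, Dixdc1 and Lonrf3 at 0.26 to 0.33. This distance grows with the size of the differences between libraries, and Tnfaip2 had the largest group difference of the 10 genes. Among the 10 genes themselves the most alike pair was Nfkbiz and Birc3 (0.19) and the least alike Bcl3 and Tnfaip2 (1.94).

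Most other genes of the pathway were not called. Of 115 tested genes in 5 lists of NF-kB signalling, 98 did not pass the test, 8 were higher and 9 lower, a called share of 14.8% that lies near the 15.4% of all tested genes. The median log2 fold change of the 115 was 0.04. Limma on log2(FPKM + 1) split 16 calls into 5 higher and 11 lower. With the term for Y-linked reads, edgeR called 0 of the 115. In that fit 23 of the 115 had an unadjusted p under 0.05, as had 2181 of all 13160 tested genes. The fold changes of all 17 kept their direction in each fit that tested them.

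Among 22 ligands and receptors, 2 were higher and 3 lower. Il1r1, the signalling receptor of interleukin-1, went from 34.8 to 176 CPM in the group means, with 40.04, 35.1 and 29.2 CPM in WT livers against 268, 147 and 112 CPM (log2 fold change 2.34, SE 0.32, adjusted p = 0.00312 by edgeR). Tnfrsf12a, the receptor of TWEAK, rose by 2.08 (SE 0.35) on the log2 scale. Tlr3, a sensor of double-stranded RNA, fell by 1.27, the cytokine Il1a by 1.25 and Tlr9, a sensor of DNA, by 2.31 on the log2 scale. The calls of Il1r1 and Tnfrsf12a held whichever library was left out, that of Tlr3 ended without WT 2 (adjusted p = 0.0802), and those of Il1a and Tlr9 ended without any of several libraries (up to 0.108, Il1a without WT 2, and 0.0891, Tlr9 without WT 3). Tnfrsf1a, the TNF receptor that hepatocytes carry, had the highest mean TPM of the list and was not called (log2 fold change 0.36, adjusted p = 0.322), and Tnf itself lay between 0.2 and 0.882 CPM in all libraries.

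Of 24 adaptors and ubiquitin ligases, Myd88 and Sharpin were higher and Nod1 lower. Myd88, the adaptor of Toll-like and interleukin-1 receptors, differed by 0.88 on the log2 scale (edgeR's adjusted p = 0.034), Sharpin, a part of the linear ubiquitin ligase, by 0.63 (0.0487), and Nod1, a sensor of bacterial peptidoglycan, by -0.99 (0.00563). Nod1 stayed called in all 6 fits with a library left out. Myd88 lost its call with WT 1, WT 2 or WT 3 left out (up to 0.128, without WT 2), and the Sharpin call held only without iKO 2 (up to 0.191, without WT 2). Ube2n, with the highest mean TPM, was not called (log2 fold change 0.37, adjusted p = 0.0955). Of 12 kinases and their partners, Tab2, which links ubiquitin chains to the kinase TAK1, had a log2 fold change of -1.01 (SE 0.18, edgeR's adjusted p = 0.0092) and stayed called in those 6 fits. Chuk, the gene of IKK alpha and the highest in TPM, was not called (-0.13, adjusted p = 0.683). Of 24 further subunits, IkB proteins and brakes, 1 was called, Spata2, a partner of the deubiquitinase CYLD (0.58, adjusted p = 0.0493), and that call held only without WT 1 (up to 0.198, without WT 2). The highest of that list, Commd1, was not called (0.45, adjusted p = 0.18).

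Of 33 other target genes, 3 were higher and 4 lower. Ier3, an early response gene, had WT values of 1.49, 1.47 and 1.35 CPM, against 10.7, 4.29 and 5.86 CPM (log2 fold change 2.26, SE 0.36, adjusted p = 0.00558 by edgeR). Socs3, a brake on STAT3 signalling, had a log2 fold change of 2.06, and Bcl2l1, the gene of the survival protein BCL-XL, one of 0.89. Irf1, an interferon-responsive transcription factor, went from 42.7, 45.6 and 49.6 CPM to 16.5, 23.5 and 25.9 CPM (-1.06, adjusted p = 0.00827). The death ligand Tnfsf10 had a log2 fold change of -1.34, the cytokine subunit Ebi3 one of -1.53 and the chemokine Cxcl9 one of -1.0. The calls of Ier3 and Irf1 held whichever library was left out, and those of the other 5 each ended in at least 3 such fits (adjusted p up to 0.18, Socs3 without WT 2). Saa1, an acute phase gene with the highest mean TPM of the list, had WT values of 263, 120 and 219 CPM, against 1868, 261 and 375 CPM, and was not called (adjusted p = 0.144). Inflammatory targets such as Il6, Cxcl2, Ccl3, Ccl4 and Ptgs2 were among the 10 of this list that did not pass the filter on low counts.

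**Figure D4:**
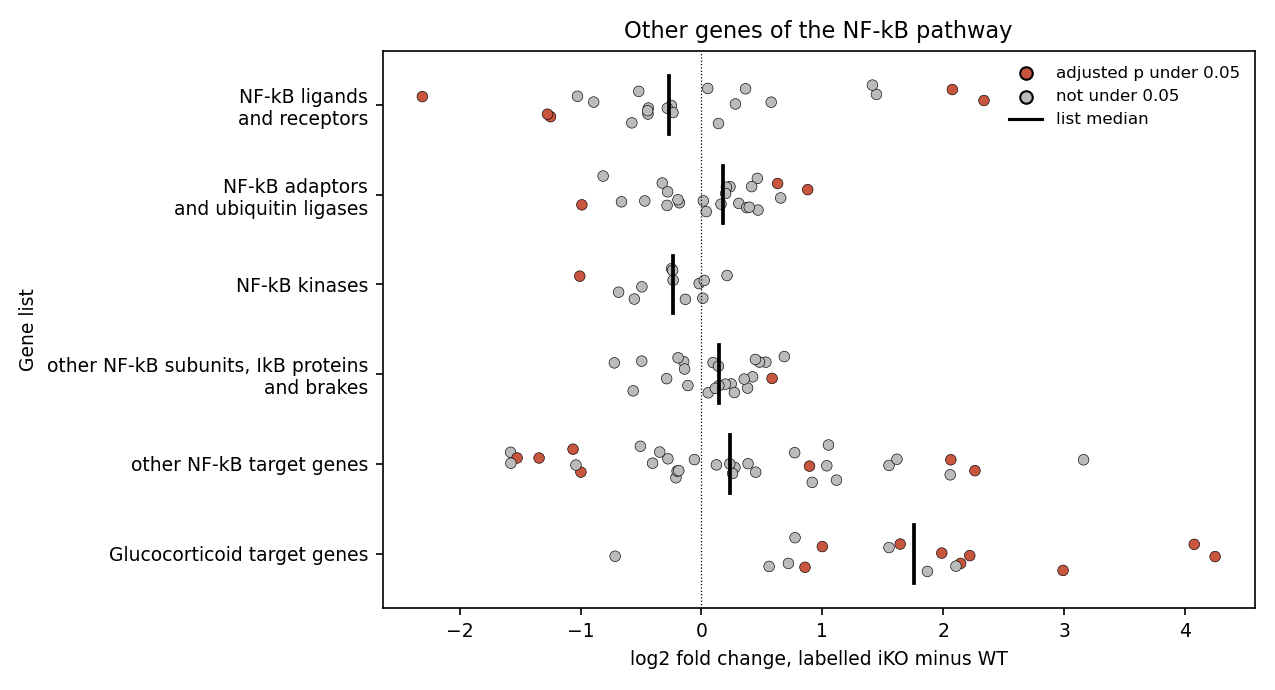
Each point is the log2 fold change of 1 tested gene, labelled iKO minus WT, in 5 lists of NF-kB pathway genes and a list of glucocorticoid target genes; red points passed an adjusted p of 0.05 in edgeR and black lines are list medians. The medians of the 5 pathway lists lie between -0.27 and 0.23, and that of the glucocorticoid targets at 1.76.

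Nfkbia is also a textbook target of the glucocorticoid receptor. A list of such genes, chosen with earlier results of these data known, was read in the same livers. Of its 16 genes 9 were higher, 0 lower and 7 not called, where 7.31% of all tested genes were higher, with a median log2 fold change of 1.76. Fkbp5, a chaperone partner of the receptor, had WT values of 23.7, 29.8 and 29.7 CPM, against 128, 134 and 126 CPM (log2 fold change 2.22, SE 0.17, adjusted p = 0.00021 by edgeR). Pck1, a gluconeogenic enzyme, had a log2 fold change of 1.99, the transcription factor Zbtb16 one of 2.14 and Tat, which breaks down tyrosine, one of 1.64. With the term for Y-linked reads Fkbp5 (adjusted p = 0.00596) and Zbtb16 (0.0344) kept their calls, and Pck1 (0.0564) and Tat (0.0817) did not. Their relation to the Nfkbia level was not tested.

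Markers of other cell types were read as well, where 8.07% of all tested genes were lower and 7.31% higher. Of 13 neutrophil markers 5 were lower and 0 higher, with a median log2 fold change of -0.95. Their summed level was 149 to 538 CPM in WT and 484 to 1155 CPM in the livers labelled iKO. Lcn2, which is also in the lists of other NF-kB targets and glucocorticoid targets, contributes most to that sum. B cell markers (6 tested, 1 lower, 8.28 to 14.5 against 7.62 to 8.95 CPM in sum), dendritic cell markers (7 tested, 1 lower, 13.4 to 19.5 against 10.1 to 15.8 CPM) and T and NK cell markers (12 tested, 0 called, 13.9 to 21.9 against 17.3 to 26.6 CPM) were low in all livers. Of 9 cholangiocyte markers 1 was lower, with sums of 167, 262 and 208 CPM in WT against 98.7, 258 and 462 CPM in iKO 1, iKO 2 and iKO 3. Of 13 hepatocyte markers 2 were higher, with sums of 121240 to 129630 CPM in WT and 118340 to 144000 CPM in those labelled iKO. The part of these cells in the levels of Relb, Tnfaip3 and Birc3 was not tested.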

How the data were processed

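RNA was extracted with Trizol from 6 frozen mouse livers, per the labels' protocols. Per the submitters' processing notes, the tools were RSEM 1.2.12, Bowtie2 2.2.5 and HISAT2 2.0.4, and the genome build was mm9. The authors deposited 1 table with expected counts, FPKM (scaled for length and depth) and TPM (scaled to a common total) per library. Between 64.9% and 68.3% of the deposited expected counts were whole within 0.001. The sources used here do not give whether counting used strand. Promoter windows come from RefSeq (GRCm38.p6), matched by symbol, and the last 30 bases of 9 of the 10 windows were found in a GENCODE transcript of the same gene, the exception being Tnfaip2.

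After rounding, expected counts went into edgeR 4.0.16 under R 4.3.3, with filterByExpr, TMM factors and a robust quasi-likelihood test. P-values were adjusted by Benjamini-Hochberg over 13160 genes, with a threshold of 0.05. Each SE was computed from the log2 fold change and its F statistic. Alternatives were DESeq2 1.42.0, RLE or upper-quartile factors, keeping every gene with at least 1 count in 1 library, limma 3.58.1 on log2 FPKM with a pseudocount of 1 or 0.1, a replicate block, a term for Y-linked reads (Ddx3y and Kdm5d together over 10 counts), the libraries with such reads alone, a transcript length offset (lowess, span 0.3) and leaving out each library. Libraries of the same group differed by more than sampling noise in all 6 pairs. Counting error matters at these totals mainly near 1 CPM. Tlr9 and Ebi3 lie there, as do Ier3 in WT, Il1a under the iKO label and Tnfaip3 in iKO 1.

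The 10 genes and the lists were chosen with earlier results of these data known. The rule for named genes takes the 10 genes, called genes of the 5 pathway lists (up to 5 per list and direction), 4 called glucocorticoid targets, the gene of highest mean TPM per pathway list, and the 3 closest profiles of each called gene and of Rela. Profiles used log2(CPM + 0.5). Nfkbib, Nfkbie, Rel, Tnf, Il6, Cxcl2, Ccl3, Ccl4 and Ptgs2 were named after their values were seen.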

Additional observations from a re-analysis of the deposited data

How the results depend on the processing

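Tnfaip2 kept its direction in all 16 alternatives and its call in 15, the exception being the 4 libraries with Y-linked reads. Nfkbia kept its direction in all 16 and its call in 7, and Nfkb1 in all 16 and 5. Of the 10 genes, 1 was called (Tnfaip2) on log2(FPKM + 1), on log2(FPKM + 0.1), with the length offset and with the term for Y-linked reads. Leaving out 1 library gave 1 to 2 calls. Over all genes the 2024 calls became 184 with the Y-linked term, 143 when fitted on Y-positive libraries alone and 491 to 1840 with 1 library left out (491 without WT 2, 908 without WT 3, 946 without iKO 3). The 17 pathway calls became 0 with the Y-linked term and 6 to 16 with 1 library left out (6 without WT 2, 9 without WT 3). With that term, as in the Y-positive libraries alone, WT 1 is the only WT library with Y-linked reads. With the term the SE of Nfkbia went from 0.18 to 0.28 and that of Nfkb1 from 0.15 to 0.21. Their log2 fold changes went from 0.75 to 0.90 and from -0.54 to -0.39. The cause of the fewer calls was not tested.

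The log2 fold change of Tnfaip3 (0.03) turned to -0.0072 with upper-quartile factors, -0.15 and -0.48 on log2(FPKM + 1) and log2(FPKM + 0.1), -0.29 with the replicate block, -0.10 without WT 1 and -0.65 without iKO 3, and ran from -0.65 to 0.51 over the fits with 1 library left out. That of Relb ran from -0.063 (without iKO 3) to 0.86 (without iKO 1) over those fits. The log2(FPKM + 0.1) fit moved the median of all genes from -0.02 to -0.20, and relative to that median Nfkbia was at 0.74 and Nfkb1 at -0.50. Deviations of same-numbered libraries correlated at 0.21, 0.22 and 0.05, so the numbers were not taken to pair the livers. A replicate block gave 1710 calls over all genes, 15 in the pathway lists and 2 among the 10 genes, Nfkb1 being at an adjusted p of 0.0662. Not every library correlated best with its own number. Counting depth limits statements on genes near 1 CPM.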
